A study of Homo sapiens with 10 samples.

Results

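The comparison is between late and early arrays of one course of treatment. MCF10A cells, an established non-tumorigenic line of human mammary epithelium, had been given TGFβ for 5, 6 or 8 days (n = 3 arrays), and were set against cells given it for 4 h or 1 day (n = 2 arrays). These 5 arrays, chosen by their labelled times, are 5 of the 10 in the series. The other arrays, which took no part in the test, were those of cells treated for 2, 3, 4 and 12 days and 1 array of untreated cells. All treated cells received 10 ng/mL of TGFβ, so that no group in the comparison is free of it, and by the labels the groups differ in time with TGFβ. By the study's methods TGFβ was added at staggered times, with all plates kept without serum before harvest and harvested together. The labels speak of complete growth medium instead. If serum was withheld, a larger share of the exposure was without it in the first-day cells than on days 5 to 8. This cannot be told apart from time with TGFβ. RNA was measured on whole-transcript arrays, which gave 1 log2 value for each of 23786 genes on each array. No time had a replicate, so the spread within a group holds both array noise and any change from one time to the next, and whether an array holds 1 culture or several is not known. With so few arrays, the precision of every value is limited.

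TGFβ signals through paired serine/threonine kinase receptors to SMAD transcription factors. In mammary epithelial cells it is known for halting proliferation and for driving the epithelial to mesenchymal transition, in which cells loosen their junctions, lay down a fibronectin-rich matrix and build contractile actin. The array values bear on messenger level only, and in bulk RNA fewer cells of a type and less RNA per cell cannot be told apart.

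The 10 arrays had medians between 2.92 and 2.98. The untreated array stood apart from the rest, with a median absolute deviation from each gene's median of 0.238, against 0.0994 to 0.162 on the treated arrays. It was left out of the comparison by its label and not because of these values. Within the days 5 to 8 group 117 to 123 genes were at least 1 log2 apart between any pair of arrays, whereas 415 were between 4 h and day 1, so the first-day group was the less uniform one. Between the groups, 984 to 1792 genes were at least 1 log2 apart from array to array. Of 12 mammary epithelial marker genes 0 were called higher and 1 lower, with a median level of 7.42 on days 5 to 8 and 7.70 on the first day. The sum of their log2 values was 88.0 to 89.6 on days 5 to 8 and 86.4 to 92.0 on the first day. The leukocyte marker PTPRC lay between 0.90 and 1.02 on days 5 to 8 and was 1.18 at 4 h and 1.08 on day 1. Of 10 leukocyte markers CD14 was called lower (-1.28), a call lost without 4 h, day 6 or day 8, and CD68, which other cells also express, was at 6.80 to 6.88 on days 5 to 8 and 7.47 to 7.73 on the first day. Of 8 endothelial and 5 adipocyte markers 0 were called. The summed log2 values of the leukocyte list were 23.0 to 23.6 on days 5 to 8 and 25.3 to 25.6 on the first day.

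A gene was called when its difference, days 5 to 8 minus first day, was at least 1 log2 and its p from limma's moderated test, adjusted by Benjamini-Hochberg across the 23786 genes, did not exceed 0.05. By this rule 633 genes (2.66%) rose and 370 (1.56%) fell, 1003 in all (4.22%). These shares of all genes are the background for every list count below. Among the called genes, 116 rose and 36 fell by at least 2 log2, and 24 rose and 9 fell by at least 3 log2. Every called gene had days 5 to 8 values wholly above or wholly below both first-day values, which is a weak condition with 5 arrays. Without any test, 4391 genes (18.5%) lay wholly higher and 5590 (23.5%) wholly lower. Without the day 1 array the number called lower was 616, against 286 to 382 in the fits that left out another array.

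**Figure D1:**
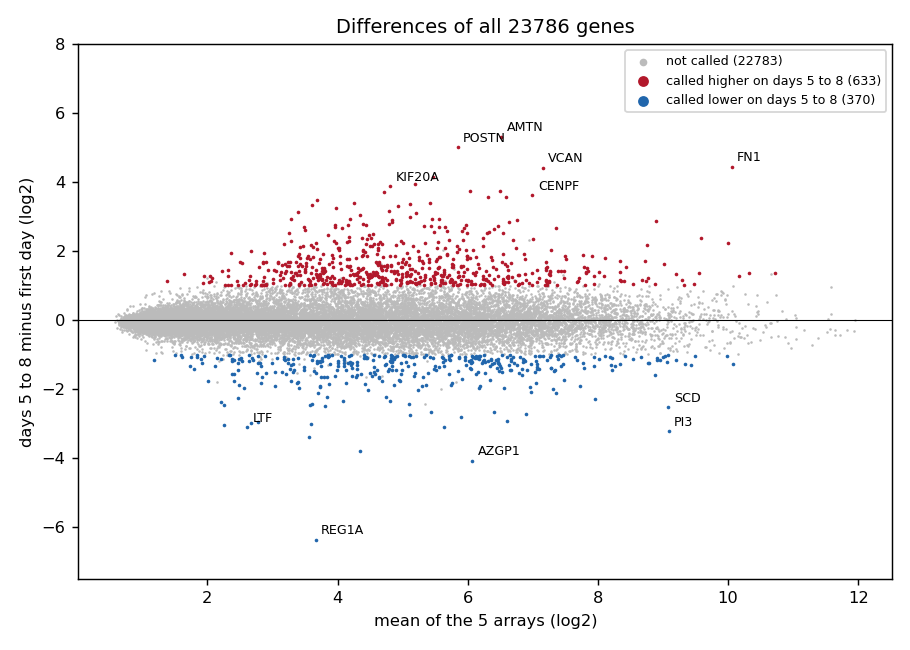
Each point is 1 of 23786 genes, with its mean over the 5 arrays on the x axis and its difference, days 5 to 8 minus first day, on the y axis (both log2). Red points are the 633 genes called higher on days 5 to 8 and blue points the 370 called lower; named points mark matrix and mitosis genes at the top and secreted defence genes and SCD at the bottom.

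The contrast has 4 marker genes, and 3 of them were higher on days 5 to 8. POSTN encodes periostin, a matricellular protein that binds integrins and crosslinks collagen. It was at 7.64, 7.80 and 8.09 log2 on days 5, 6 and 8, against 1.89 at 4 h and 3.79 on day 1. The late arrays lay close to each other while the first-day arrays were far apart, and the gap between the groups was larger than either spread (difference 5.00, SE 0.47, adjusted p = 0.00099). VCAN, which encodes the large chondroitin sulphate proteoglycan versican, was at 8.72, 8.86 and 9.17 on days 5, 6 and 8, against 4.26 at 4 h and 4.74 on day 1 (difference 4.42, SE 0.20, adjusted p = 0.000131). KIF20A encodes a kinesin of the central spindle that is needed for cytokinesis. Its values were 6.07, 6.42 and 6.59 on days 5, 6 and 8, against 2.13 at 4 h and 2.83 on day 1 (difference 3.88, SE 0.24, adjusted p = 0.000311). REG1A, a secreted C-type lectin, went the other way. It was at 1.34, 1.16 and 0.84 on days 5, 6 and 8, against 7.54 at 4 h and 7.42 on day 1 (difference -6.37, SE 0.17, adjusted p = 9.82e-06). Its late values were below the lower quartile of all genes on those arrays, 1.64 to 1.69 and so lie near the floor of the measurement. The same held for the late means of 22 of the 370 genes called lower, whose differences are set against values near that floor. Of the 633 genes called higher, 20 had a first-day mean under the lower quartile of genes.

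**Figure D2:**
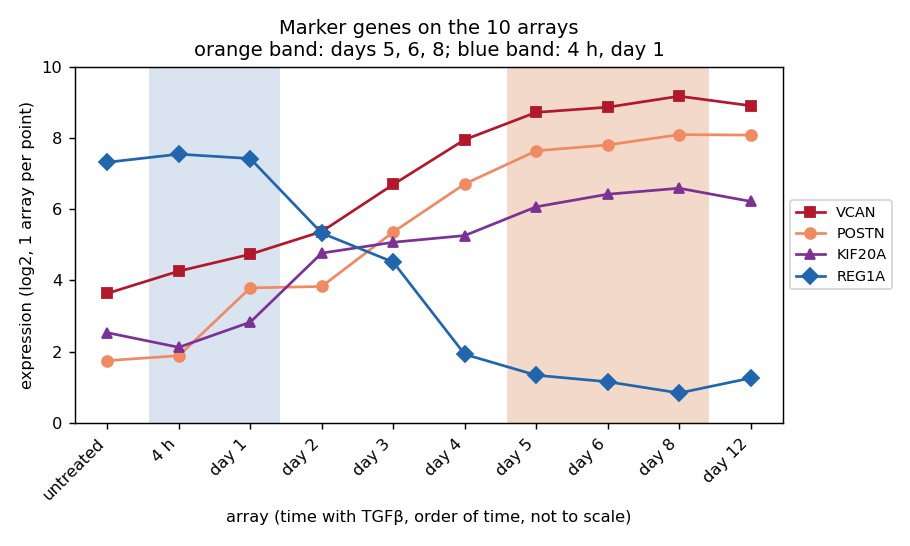
Log2 expression of VCAN, POSTN, KIF20A and REG1A, 1 array per point, on the 10 arrays in order of time (spacing not to scale); the orange band holds days 5, 6 and 8 and the blue band 4 h and day 1. VCAN, POSTN and KIF20A lie higher in the orange band than in the blue band and REG1A lies lower, with the days between them at values between the bands.

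The extracellular matrix genes made up a large part of the higher end. Of 31 matricellular and fibre proteins 12 rose and 0 fell, with a median difference of 0.51 over the list against -0.04 over all genes. AMTN, which encodes the enamel matrix protein amelotin, had the largest rise of any gene named by rule. It was at 8.78, 8.61 and 8.53 on days 5, 6 and 8, against 2.13 at 4 h and 4.53 on day 1 (difference 5.32, SE 0.57, adjusted p = 0.00173). FN1, the gene of fibronectin, was at 11.80, 11.83 and 11.87 on days 5, 6 and 8, against 6.03 at 4 h and 8.75 on day 1 (difference 4.44, SE 0.64, adjusted p = 0.00532). The 3 late FN1 values were almost equal, and most of the error came from the 4 h and day 1 values. FBLN5, an elastic fibre assembly protein, reached 6.81, 6.50 and 7.01 on days 5, 6 and 8, against 2.72 at 4 h and 2.93 on day 1. The elastic microfibril protein gene MFAP5 rose by 3.75, FSTL1 by 3.73, SPARC, a collagen-binding protein, by 2.73, the tenascin gene TNC by 2.51 and the fibrillin gene FBN1 by 2.25. Other matricellular genes did not pass, with differences of -0.76 for THBS1, 0.15 for CCN2 and 0.96 for TGFBI. Leaving out single arrays gave 10 to 13 higher members.

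Among 25 proteoglycan cores 5 rose and 1 fell, with a median difference of 0.03 (-0.02 without the 4 h array). Besides VCAN, the small leucine-rich proteoglycan gene DCN was at 6.60, 6.81 and 6.81 on days 5, 6 and 8, against 3.19 at 4 h and 4.87 on day 1 (difference 2.71, adjusted p = 0.00657). The glypican gene GPC6 rose by 2.03 and the syndecan gene SDC2 by 1.86, whereas SDC4 fell by 1.15, a call lost without the 4 h array (-0.86). Of 27 collagen chains, with a median difference of 0.23 (0.10 without the 4 h array), COL4A2 and COL4A1, the pair that forms the common basement membrane network, were called higher (COL4A2 by 1.56), and the fibrillar chains COL1A1, COL3A1 and COL5A2 had differences of 0.18, 0.43 and 0.55 that did not pass. Of 11 laminin chains 0 were called, whereas without the day 1 array 2 were called higher and 1 lower.

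Of 20 integrin chains, the receptors for these matrix proteins, 8 rose and 0 fell, where 2.66% of all genes rose. ITGB3, a chain of the vitronectin receptor, was at 5.80, 5.22 and 5.60 on days 5, 6 and 8, against 2.73 at 4 h and 2.84 on day 1 (difference 2.75, SE 0.18, adjusted p = 0.000363). ITGA4 rose by 2.19, the collagen receptor chain ITGA1 by 1.77, and the fibronectin receptor chain ITGA5 by 1.39. ITGAV, ITGB5 and ITGB6 rose by 1.37, 1.12 and 1.29, and ITGB4, a hemidesmosome chain, by 1.34. The number of integrin chains called depended on single arrays, with 4 without the 4 h array, 5 without day 6 and 5 without day 8. Without the 4 h array ITGAV (0.90), ITGB4 (0.92), ITGB5 (0.73) and ITGB6 (0.76) were under the size limit. ITGAV also lost its call without day 6 and ITGB4 without day 8, and ITGB5 and ITGB6 kept theirs only without day 1.

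Of 36 matrix proteases and their inhibitors 14 rose and 1 fell, where 2.66% of all genes rose and 1.56% fell. ADAMTS6, a secreted metalloprotease, was at 7.05, 7.10 and 7.24 on days 5, 6 and 8, against 2.43 at 4 h and 3.53 on day 1 (difference 4.15, SE 0.28, adjusted p = 0.000398). MMP2, a gelatinase, was at 7.76, 7.59 and 7.85 on days 5, 6 and 8, against 3.07 at 4 h and 5.30 on day 1 (difference 3.55, adjusted p = 0.00638). MMP13, a collagenase, rose by 3.32, ADAM19 by 2.84, MMP9 by 1.78 and the collagen crosslinker LOX by 1.71. For MMP13 the first-day mean was 1.61, near the floor. PLAU, the urokinase gene, was also called higher. Among the inhibitors, TIMP2 rose by 1.42 and TIMP1 fell by 1.28. MMP1, MMP3 and MMP10 had differences of -0.01, -0.32 and -0.17.

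The actin and contractility list held 9 higher and 0 lower of 36 members, where 2.66% of all genes rose. Its median difference was 0.52. MYL9, the regulatory light chain of non-muscle and smooth muscle myosin, was at 7.91, 7.86 and 7.98 on days 5, 6 and 8, against 4.89 at 4 h and 5.13 on day 1 (difference 2.90, SE 0.14, adjusted p = 0.000131). NEXN rose by 2.92, TAGLN by 2.52, PDLIM7 by 1.63 and the tropomyosin genes TPM2 and TPM4 by 1.62 and 1.28. The smooth muscle actin gene ACTA2 and the vimentin gene VIM did not pass, at -0.23 and 0.33.

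Transition factors and junction genes are often used to define the state of such cells. Of 26 transition factors and their opponents, ZEB1, a repressor of epithelial genes, was called higher at 1.01 and ESRP2, an epithelial splicing regulator, was called lower at -1.08. ZEB1 was at 4.97, 5.59 and 5.53 on days 5, 6 and 8, against 4.31 at 4 h and 4.40 on day 1, and its call was lost without the 4 h array (0.96), without day 6 (0.90) and without day 8 (0.92). The ESRP2 call was lost without the 4 h array (-0.83). SNAI2, ZEB2 and SNAI1 had differences of 0.83, 0.68 and -0.52 that did not pass. Of 39 junction and polarity genes 2 rose and 0 fell, where 2.66% of all genes rose and 1.56% fell. CDH2, the gene of N-cadherin, was at 7.28, 7.75 and 7.70 on days 5, 6 and 8, against 4.81 at 4 h and 6.19 on day 1 (difference 2.07, adjusted p = 0.0112). Its call was lost without day 6 (adjusted p = 0.0598) and without day 8 (adjusted p = 0.0515), and its difference was 1.38 without the 4 h array. CLDN4, a tight junction claudin, rose by 1.39. The E-cadherin gene CDH1 was at 10.06, 9.95 and 9.96 on days 5, 6 and 8, against 9.30 at 4 h and 9.52 on day 1, a difference of 0.58 that was under the size limit. EPCAM had a difference of -0.54.

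Of 27 keratins and envelope genes 0 rose and 3 fell, namely KRT10 (-1.98), KRT17 (-1.13) and SPRR1B (-1.07). For SPRR1B the late mean was 1.32, near the floor. All 3 calls depended on single arrays. KRT10 was not called without day 6 (adjusted p = 0.0829) or day 8 (adjusted p = 0.0844), and its difference was -1.16 without day 1. KRT17 was not called without day 1 or day 6, and SPRR1B was called in 1 of the 5 fits that left out an array, the one without day 1; without the 4 h array its difference was -0.67. KRT14, a basal keratin, was at 7.92, 7.70 and 7.97 on days 5, 6 and 8, against 4.90 at 4 h and 7.54 on day 1. With so wide a first-day gap its difference of 1.65 did not pass (adjusted p = 0.144). It was 2.96 without the day 1 array and 0.33 without the 4 h array.

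The genes of mitosis and G2 formed the list with the largest share of called members. Of 64 measured genes 52 were called higher and 0 lower, where 2.66% of all genes were called higher, and 62 of the 64 lay wholly above the first-day arrays, where 18.5% of all genes did. The median difference was 1.64. CENPF, a kinetochore protein of late G2 and mitosis, was at 8.03, 8.76 and 8.53 on days 5, 6 and 8, against 4.71 at 4 h and 4.94 on day 1 (difference 3.61, SE 0.22, adjusted p = 0.000311). TOP2A, the topoisomerase that untangles sister chromatids, was at 7.68, 8.21 and 8.16 on days 5, 6 and 8, against 4.36 at 4 h and 4.54 on day 1 (difference 3.57, SE 0.19, adjusted p = 0.000188). CENPE, a kinetochore motor, rose by 3.36. For these genes the day 5 array was the lowest of the late group, yet far above both first-day arrays.

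Other members of this list covered each step of division. The mitotic kinase CDK1 and its partner cyclins CCNB1, CCNB2 and CCNA2 rose by 2.75, 2.18, 2.10 and 1.08. The spindle checkpoint genes BUB1, TTK and BUB1B rose by 3.26, 3.03 and 2.67, the kinetochore genes NDC80 and NUF2 by 2.46 and 2.26, and the condensin genes NCAPG, SMC2 and SMC4 by 2.71, 1.38 and 1.20. PLK1 and AURKB, kinases of spindle assembly and cytokinesis, rose by 1.62 and 1.24, and FOXM1, a transcription factor of G2 genes, by 1.79. MKI67, the Ki-67 antigen, rose by 2.73. Without the 4 h array the calls of SMC4 (0.98), CCNA2 (0.86), AURKB (adjusted p = 0.0624) and FOXM1 (adjusted p = 0.0664) were lost, as were CCNA2 without day 6 (adjusted p = 0.0525) and FOXM1 without day 8 (adjusted p = 0.0552). The 12 members that did not pass had differences of 0.39 to 0.94, apart from CDC25B at -0.70. Leaving out single arrays gave 41 higher members without 4 h, 42 without day 8, 43 without day 6, 50 without day 1 and 55 without day 5, with 0 lower in each.

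Genes of DNA replication and S phase did not share this shift. Of 50 measured genes 1 rose and 0 fell, and the median difference was 0.08. The called member was RRM2, the regulated subunit of ribonucleotide reductase, at 4.72, 5.52 and 6.05 on days 5, 6 and 8, against 4.37 at 4 h and 3.64 on day 1 (difference 1.43, SE 0.37, adjusted p = 0.046). Its late values were spread over more than 1 log2, and the call was lost without the 4 h, day 1, day 6 or day 8 array (adjusted p = 0.0696 to 0.19). The replicative helicase genes MCM2, MCM5 and MCM6 had differences of 0.24, 0.43 and -0.29, the sliding clamp gene PCNA 0.03, the cyclin genes CCNE1 and CCNE2 -0.05 and -0.34, and E2F1, the activator of S phase genes, -0.20. Primase PRIM1, at 0.99, was just under the size limit. Relative to the first-day mean, the median of the S phase list was -0.03, 0.07 and 0.25 on days 5, 6 and 8, and 0.36 on day 12. The same measure in the mitosis list was 1.25, 1.70 and 1.94 on days 5, 6 and 8, and 1.96 on day 12. Both lists had their highest medians on the last array.

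**Figure D3:**
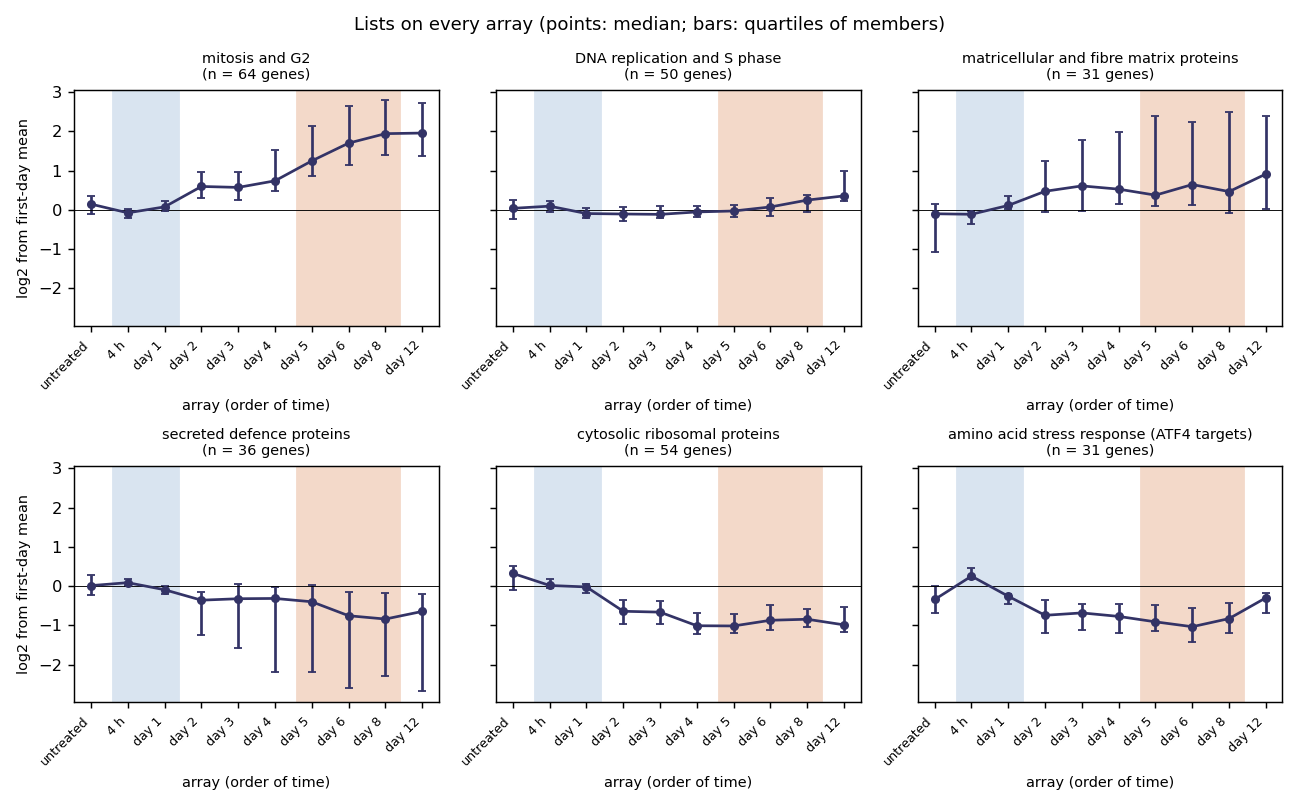
Median log2 value of 6 gene lists on each of the 10 arrays in order of time, relative to each gene's first-day mean; points are medians over members, bars run from the lower to the upper quartile of members, the orange band holds days 5, 6 and 8 and the blue band 4 h and day 1. The mitosis and G2 list reaches 1.25 to 1.94 in the orange band while the S phase list stays at -0.03 to 0.25, the ribosomal list lies at -0.84 to -1.01, and the amino acid stress list comes back to -0.30 on day 12.

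Promoters of mitosis genes are known to carry a short element called the CHR, bound by MuvB complexes, with CCAAT boxes, bound by NF-Y, a few turns upstream. Here the CHR was searched for as TTTGAA and the CCAAT box as CCAAT, on both strands, from 250 bases before to 50 bases after each start in the RefSeq promoter table (GRCh38.p14). TTTGAA stood in 39 of the 56 promoters found for the mitosis list (69.6%), in 12.3% of 16338 promoters of genes on the array, and in 1 of 41 promoters of the S phase list (2.44%). CCAAT stood in 67.9% of the mitosis promoters, 36.2% of those of the array and 58.5% of the S phase promoters. Both stood in 28 of the 56 mitosis promoters and 5.01% of those of the array. Among all genes called higher 22.7% of 502 promoters held TTTGAA, and among genes called lower 8.75% of 240. Of the 114 such promoters of genes called higher, 33 belonged to the called mitosis genes. Within the mitosis list the share was 68.8% in the 48 promoters of called genes, against 69.6% in all 56. These are matches of letters and not shown to be sites. The 120 bases before the start follow for KIF20A, for the 3 other mitosis genes of largest difference that hold both motifs in that stretch, and for RRM2 as the called S phase gene. They were chosen after the values were seen. Capitals mark TTTGAA or its reverse complement TTCAAA, and CCAAT or its reverse complement ATTGG.
KIF20A (chr5:138178992-138179111, plus strand): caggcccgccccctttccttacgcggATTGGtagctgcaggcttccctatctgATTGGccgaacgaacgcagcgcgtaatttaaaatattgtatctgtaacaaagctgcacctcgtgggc
DLGAP5 (chr14:55191586-55191705, minus strand): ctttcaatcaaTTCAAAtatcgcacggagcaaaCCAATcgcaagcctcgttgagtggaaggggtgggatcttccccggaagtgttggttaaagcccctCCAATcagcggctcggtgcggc
CKAP2L (chr2:112764610-112764729, minus strand): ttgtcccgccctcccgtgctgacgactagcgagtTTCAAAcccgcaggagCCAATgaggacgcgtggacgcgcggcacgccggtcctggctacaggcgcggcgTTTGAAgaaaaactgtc
MKI67 (chr10:128126424-128126543, minus strand): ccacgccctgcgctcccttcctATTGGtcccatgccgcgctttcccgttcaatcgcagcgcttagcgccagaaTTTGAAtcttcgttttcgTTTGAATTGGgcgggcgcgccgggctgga
RRM2 (chr2:10122619-10122738, plus strand): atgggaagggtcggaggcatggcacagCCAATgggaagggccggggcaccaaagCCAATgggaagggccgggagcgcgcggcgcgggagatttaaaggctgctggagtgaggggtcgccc

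Each of the 3 genes with both motifs held 1 or 2 copies of each in this stretch, and in MKI67 a TTTGAA and an ATTGG share 1 letter. In DLGAP5 the TTCAAA, 109 bases before the start, lay upstream of both CCAAT boxes, at 87 and 22 bases. That is the reverse of the order given above, whereas CKAP2L and MKI67 each had a CCAAT box upstream of a TTTGAA. KIF20A and RRM2 held 2 CCAAT boxes each and 0 copies of TTTGAA in the stretch. DLGAP5, a spindle microtubule protein, rose by 2.90 and CKAP2L, a spindle pole protein, by 2.75, whereas KIF20A, without the CHR letters here, had the largest difference of the list.

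Among 16 cell cycle inhibitors 3 rose and 0 fell. The stress sensors GADD45A and GADD45B rose by 1.41 and 1.29. CDKN3, a phosphatase of CDK1 and CDK2 whose own messenger peaks late in the cell cycle, was called at 1.67, and its call was lost without the 4 h array (adjusted p = 0.0951), day 6 (adjusted p = 0.0695) or day 8 (adjusted p = 0.0577). The CDK inhibitors CDKN1A, CDKN2A and CDKN2B, the last of them a known TGFβ target, had differences of -0.25, -0.22 and -0.09.

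Secreted defence proteins, a list of antimicrobial and other secreted products of mammary and other secretory epithelium, led the lower end. Of 36 measured genes 13 fell and 1 rose, where 1.56% of all genes fell, and the median difference was -0.77. AZGP1, a secreted glycoprotein, was at 4.86, 4.95 and 3.51 on days 5, 6 and 8, against 8.60 at 4 h and 8.43 on day 1 (difference -4.07, SE 0.39, adjusted p = 0.00112). PLA2G2A, a phospholipase that kills bacteria, was at 3.06, 2.62 and 2.77 on days 5, 6 and 8, against 6.80 at 4 h and 6.45 on day 1 (difference -3.80, adjusted p = 0.000131). PI3, the elastase inhibitor elafin, was at 8.21, 7.62 and 7.57 on days 5, 6 and 8, against 11.07 at 4 h and 10.96 on day 1 (difference -3.21, adjusted p = 0.000344). The first-day arrays were close to each other in all 3 genes. Lactoferrin, encoded by LTF, fell by 3.11, with a late mean of 1.36 near the floor, OLFM4 by 3.10 and the siderophore binder LCN2 by 2.92. The calprotectin pair S100A8 and S100A9 fell by 2.22 and 1.98, S100A7 by 2.45, SCGB1A1 by 2.46, REG1B by 2.36 and the acute phase gene SAA1 by 1.16. CHI3L1, a chitinase-like protein, was the member that rose, by 1.62. Of 33 interleukin 1 family and chemokine genes, the inflammatory cytokine genes IL1A and IL1B fell by 2.08 and 1.25, and the scavenging chemokine receptor ACKR3 rose by 2.75. The IL1A difference was -1.38 without the 4 h array. IL6, CXCL8 and CXCL1 had differences of -0.13, -0.28 and 0.50.

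Other genes with large falls had varied roles. BDKRB1, a kinin receptor, was at 2.08, 2.43 and 2.07 on days 5, 6 and 8, against 6.46 at 4 h and 4.73 on day 1 (difference -3.40, adjusted p = 0.00324). SLIT2, a guidance ligand, was at 2.17, 2.73 and 2.26 on days 5, 6 and 8, against 6.19 at 4 h and 4.61 on day 1 (difference -3.01, adjusted p = 0.00433). EGLN3, an oxygen sensor of the HIF pathway, fell by 2.97, with a late mean of 1.48 near the floor. For BDKRB1 and SLIT2 the day 1 value was already below the 4 h value. The same held for FGFBP1, a carrier of fibroblast growth factors, which was called at -2.96 (adjusted p = 0.018), with a late mean of 1.60 near the floor. FGFBP1 lost the call without day 6 (adjusted p = 0.0811) or day 8 (adjusted p = 0.0642), and had a difference of -1.72 without the 4 h array. KLRC4-KLRK1, a read-through locus whose probes may also match its parent genes, fell by 3.04, with a late mean of 1.03 near the floor. Of the higher genes outside the lists, the neuronal membrane protein gene SLITRK6 rose by 3.72.

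**Figure D4:**
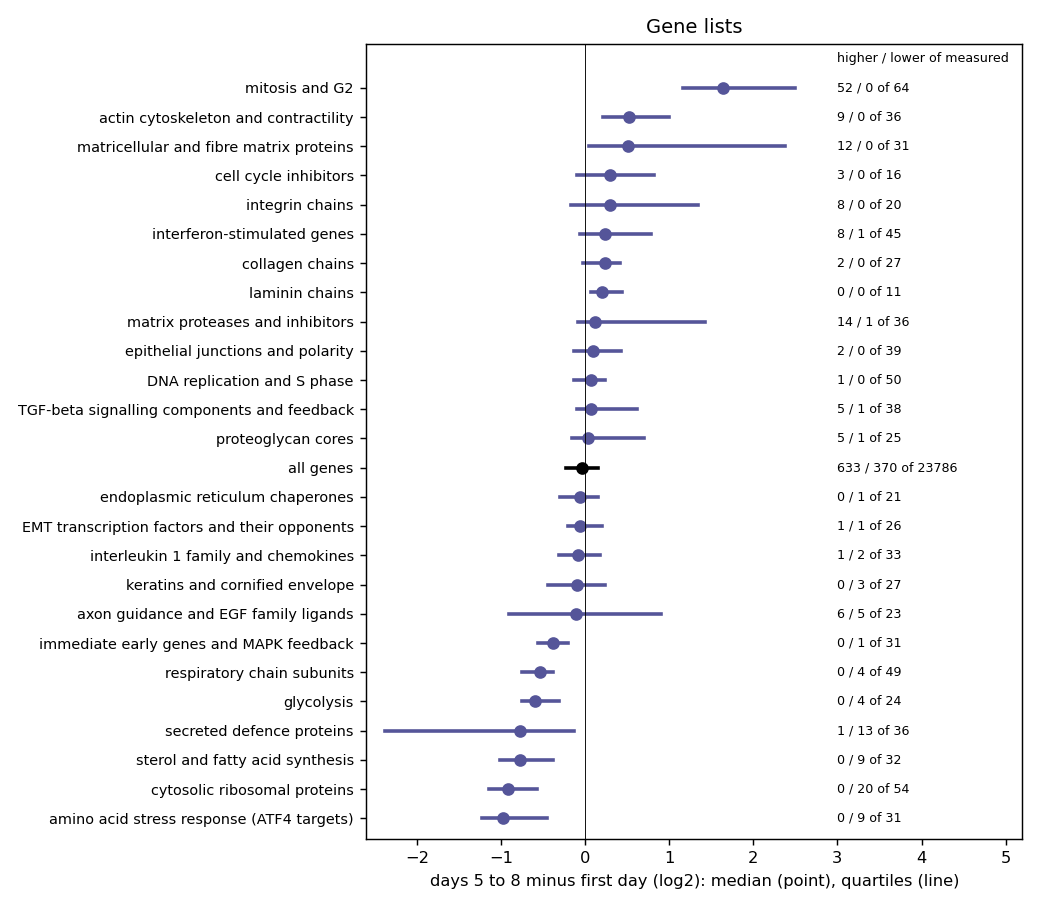
Differences, days 5 to 8 minus first day (log2, x axis), of the 25 gene lists and of all genes (black), each as the median (point) and the lower to upper quartile of members (line), with the numbers called higher and lower of those measured at the right. The mitosis and G2 list has the highest median, 1.64, and all genes lie at -0.04. The amino acid stress list has the lowest, -0.97, with all 5 arrays; without the 4 h array it was -0.54 and the ribosomal list, at -0.88, was lower.

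Lists of growth and metabolism lay on the lower side. Of 54 cytosolic ribosomal protein genes 20 fell and 0 rose, the median difference was -0.92, and 47 lay wholly below the first-day arrays, where 23.5% of all genes did. RPS16 was at 6.56, 6.90 and 6.73 on days 5, 6 and 8, against 8.31 at 4 h and 8.08 on day 1 (difference -1.47, SE 0.15, adjusted p = 0.00166). RPL30 and RPL35 fell by 1.46 and 1.34. The falls were alike in size, between 1.02 and 1.47 log2, so that at a size limit of 1.5 log2 the count was 0. Ribosomal protein genes have many near-identical pseudogene copies, and 23 of the 77 on the list were not measured by the gene mapping. Of 49 respiratory chain subunits 4 fell and 0 rose, with a median of -0.54 and 37 of them wholly below the first day. UQCRC1, CYC1 and COX7B fell by 1.27, 1.25 and 1.19, and SDHB was called at -1.04 but not without the 4 h array (-0.80) or day 5 (-0.92).

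Of 32 genes of sterol and fatty acid synthesis 9 fell and 0 rose, with a median of -0.78. SCD, the desaturase that makes oleate, was at 8.09, 8.02 and 8.11 on days 5, 6 and 8, against 10.73 at 4 h and 10.46 on day 1 (difference -2.53, SE 0.14, adjusted p = 0.000225). DHCR7, the last enzyme of cholesterol synthesis, fell by 2.00. The master regulators SREBF1 and SREBF2 fell by 1.58 and 1.44. INSIG1, which holds those regulators back, was called at -1.74, but not without the 4 h array (adjusted p = 0.0782) or day 6 (adjusted p = 0.0544). Without the 4 h array 5 members of the list were called, and without day 1 there were 14. Of 24 glycolysis genes 4 fell and 0 rose. The glucose transporter gene SLC2A1 was at 6.68, 6.44 and 6.41 on days 5, 6 and 8, against 8.54 at 4 h and 8.70 on day 1 (difference -2.10, SE 0.14, adjusted p = 0.000398). Hexokinase HK2 fell by 2.04 and PDK1, which closes entry of pyruvate into the citrate cycle, by 1.51. GPI was called at -1.06, but not without the 4 h array (-0.94).

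The amino acid stress list, targets of the transcription factor ATF4, had a median of -0.97, with 9 of 31 lower and 0 higher. Without the 4 h array the median was -0.54. ASNS, asparagine synthetase, was at 5.26, 5.41 and 5.36 on days 5, 6 and 8, against 8.60 at 4 h and 7.42 on day 1 (difference -2.67, SE 0.30, adjusted p = 0.00201). SLC7A11, the cystine importer, fell by 2.71 (not called with day 12 added to the late group, -2.23, adjusted p = 0.0646), and the serine synthesis genes PSAT1 and PHGDH by 2.29 and 1.90. The 4 h array was the higher of the first-day pair across this list, with a median 0.26 above the first-day mean, and day 1 lay 0.26 below it. Without the day 1 array 18 members were called, and without the 4 h array 6. ATF4 itself had a difference of -0.45. Of 21 endoplasmic reticulum chaperone genes HERPUD1 was called lower (-1.20, adjusted p = 0.0399), a call that remained in 1 of the 5 fits without an array, that without day 1, and whose difference was -0.63 without the 4 h array. HSPA5 had a difference of -0.62. Of 31 immediate early and MAPK feedback genes JUNB was called lower (-1.03), where 1.56% of all genes fell. The JUNB difference was -0.92 without the 4 h array, under the size limit. EGR1, FOSL1 and MYC had differences of -1.07, -0.89 and -0.55 that did not pass.

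Of 38 components of TGFβ signalling 5 rose and 1 fell, where 2.66% of all genes rose and 1.56% fell. TGFB2, a ligand, was at 7.15, 7.46 and 7.41 on days 5, 6 and 8, against 5.15 at 4 h and 4.42 on day 1 (difference 2.55, SE 0.22, adjusted p = 0.000813). LTBP3 and LTBP1, which hold latent TGFβ in the matrix, rose by 1.84 and 1.71, INHBA, the activin subunit, by 1.28 and the receptor gene BMPR2 by 1.16, which without the 4 h array was just under the size limit (0.99). The co-receptor gene TGFBR3 fell by 1.92. The feedback inhibitors SMAD7 and SKIL had differences of -0.33 and 0.37, and the signalling receptors TGFBR1 and TGFBR2 0.69 each. Among 45 interferon-stimulated genes 8 rose and 1, IFITM2, fell, where 2.66% of all genes rose and 1.56% fell. The IFITM2 difference was -1.04, and -0.93 without the 4 h array, under the size limit. GBP2, a guanylate-binding protein, was at 7.67, 7.86 and 7.31 on days 5, 6 and 8, against 4.74 at 4 h and 5.88 on day 1 (difference 2.31, adjusted p = 0.00447). GBP1, DDX60L and SAMD9L rose by 1.41, 1.33 and 1.33, and the classical members MX1, OAS1 and ISG15 had differences of -0.07, -0.21 and -0.29. Without the 4 h, day 5 or day 6 array 5 members were called higher. Of 23 axon guidance and EGF family genes 6 rose and 5 fell. SEMA7A rose by 1.38, ROBO1, a receptor of SLIT2, by 1.17 and ERBB3 by 1.16, while NRG1, a ligand of ERBB3, fell by 1.24. EPHA2 was called at -1.21, a call kept in 1 of the 5 fits without an array, that without day 1, and its difference was -0.63 without the 4 h array. Without the 4 h array ERBB3 (0.90) was not called, 3 members of this list were higher and 2 lower, and 3 were lower without day 5 and 2 without day 8.

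A difference of at least 1 log2 was found without a call in 22 genes on the higher side and 33 on the lower side. In these the gap between 4 h and day 1 had a median of 1.27 and 1.60 log2, against 0.40 and 0.36 in the genes called higher and lower. The proteoglycan gene SPOCK1 was at 6.35, 6.58 and 6.38 on days 5, 6 and 8, against 3.10 at 4 h and 5.69 on day 1 (difference 2.04, adjusted p = 0.0734). CGB8, a chorionic gonadotropin beta gene with near-identical copies, was at 7.92, 7.82 and 7.88 on days 5, 6 and 8, against 4.14 at 4 h and 6.95 on day 1 (difference 2.32, adjusted p = 0.0618). On the lower side, STC2, a secreted glycoprotein of stress, was at 4.74, 4.63 and 4.98 on days 5, 6 and 8, against 8.23 at 4 h and 5.35 on day 1 (difference -2.00, adjusted p = 0.106). In these genes day 1 was already near the late values. Without the day 1 array SPOCK1 (3.34), CGB8 (3.73) and STC2 (-3.44) were called, and without the 4 h array their differences were 0.75, 0.92 and -0.57. TNFSF15 (-1.64) and OLR1 (-1.80) had the same first-day pattern, with -2.62 and -2.89 without day 1 and -0.65 and -0.70 without 4 h. OLR1 was higher again on days 2 and 3, at 6.68 and 7.26, against 5.79 on day 1.

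The arrays that the test did not use show where the called genes stood at other times. For each gene, a value was placed between the first-day mean (0%) and the days 5 to 8 mean (100%). Those means come from the arrays on which genes were called, so this is a description. In genes called higher the median position was 59.0% on day 2, 64.3% on day 3, 76.2% on day 4 and 80.9% on day 12. In genes called lower it was 65.7% on days 2 and 3, 84.6% on day 4 and 83.7% on day 12. Crossings of the midpoint were counted from day 2 onward. Of the 633 genes called higher 397 (62.7%) were first at or past the midpoint on day 2, 76 on day 3, 102 on day 4 and 58 on days 5 to 8. Of the 370 called lower the counts were 250 (67.6%), 59, 47 and 14. On day 1 itself, 3 genes called higher and 1 called lower were at or past the midpoint. Day 1 is part of the 0% point and a wide first-day gap hinders a call, so crossings by day 1 were largely excluded by the rule. The median called gene was past its midpoint on day 2, which is a single array.

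**Figure D5:**
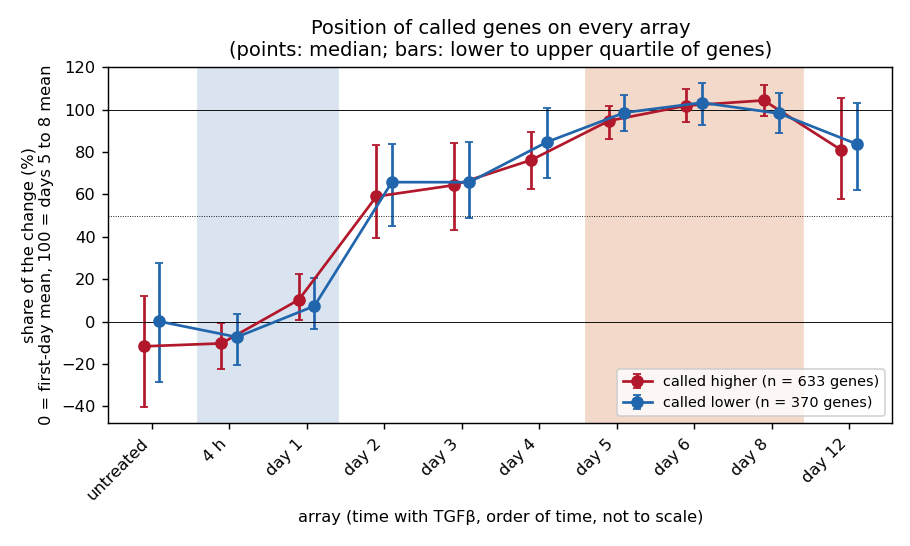
Position of called genes on each of the 10 arrays in order of time, in percent of the change from the first-day mean (0) to the days 5 to 8 mean (100); points are medians over the 633 genes called higher (red) and the 370 called lower (blue), bars run from the lower to the upper quartile of genes, and the dotted line is the midpoint. Medians pass the midpoint on day 2, at 59.0% and 65.7%, and come to 80.9% and 83.7% on day 12.

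The lists differed in these positions. In the called ATF4 targets the median position was 88.8% on day 2, in ribosomal genes 75.6% and in called proteases 70.0%, whereas in called mitosis genes it was 37.3% on day 2, 36.7% on day 3 and 56.8% on day 4. KIF20A was at 4.77, 5.07 and 5.26 on days 2, 3 and 4 and CENPF at 6.70, 6.40 and 7.47. POSTN was at 3.83, 5.36 and 6.71 on days 2, 3 and 4, while AMTN was at 7.36, 8.67 and 8.90. REG1A was at 5.33, 4.51 and 1.93 on those days. In the sterol list the called members had positions of 50.1%, 35.3% and 60.5% on days 2, 3 and 4, and INSIG1, at 8.59, 8.76 and 8.65, was within its first-day range of 8.10 to 8.96.

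On day 12, 113 of the genes called higher and 61 of those called lower were at or before the midpoint back to the first-day mean. MMP13 was at 2.43 on day 12, against 5.21, 5.32 and 4.27 on days 5, 6 and 8. PDGFD, a platelet-derived growth factor, was at 3.28 on day 12, against 5.29, 5.30 and 4.81. The ephrin receptor gene EPHA4 was at 5.54, against 7.01, 7.36 and 6.66, and the death receptor gene TNFRSF21 at 5.52, against 7.28, 7.06 and 7.23. On the lower side PSAT1 was at 8.60 on day 12, against 6.67, 6.92 and 7.55 on days 5, 6 and 8, PHGDH at 6.24, against 4.82, 4.90 and 5.26, and SLC7A11 at 7.73, against 5.47, 5.88 and 6.07. In the called ATF4 targets the median position on day 12 was 32.2%, and in the called interferon-stimulated genes 47.1%, where over all called genes it was 81.8%. The called mitosis genes stood at 108.6% and the called ribosomal genes at 101.1%. EPHA2, whose call was not stable, was at 6.28 on day 12, above both first-day values of 6.13 and 4.98. Day 12 is 1 array, so these values have no replicate check.

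The untreated array gives the level before TGFβ, with the reserve that it stood apart. The days 5 to 8 mean was at least 1 log2 from it in the same direction in 541 of 633 genes called higher and 266 of 370 called lower. In 21 genes called higher and 43 called lower, the untreated value was nearer to days 5 to 8 than to the first day, so that the difference from the first day was not one from untreated cells. On the higher side the cohesin acetyltransferase gene ESCO2 was at 4.91, 5.72 and 5.74 on days 5, 6 and 8, against 3.89 at 4 h and 2.86 on day 1, and 5.44 in untreated cells; its call was lost without day 6 (adjusted p = 0.0528). C4orf46 had a like pattern and lost its call without the 4 h, day 6 or day 8 array (adjusted p = 0.0447 to 0.0596, with a difference of 0.95 without day 6). On the lower side PLPP3, a lipid phosphate phosphatase, was at 3.50, 3.15 and 3.57 on days 5, 6 and 8, against 5.76 at 4 h and 4.69 on day 1, and 3.63 in untreated cells (difference -1.82, adjusted p = 0.00831). The kinase gene RPS6KA2 was at 2.62, 2.66 and 2.88 on days 5, 6 and 8, against 4.35 at 4 h and 4.08 on day 1, and 3.20 in untreated cells. JUNB, at 5.22 in untreated cells, and ESRP2, at 4.82, also had days 5 to 8 values near the untreated ones.

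Among these lower genes were 2 microRNA hairpin genes of one cluster on chromosome 19. MIR24-2 was at 2.31, 2.38 and 2.16 on days 5, 6 and 8, against 4.33 at 4 h and 3.30 on day 1, and 2.11 in untreated cells (difference -1.54, adjusted p = 0.0118). Its call was lost without day 6 (adjusted p = 0.0526) or day 8 (adjusted p = 0.0537), and its difference was -1.02 without the 4 h array. MIR27A was at 3.84, 3.56 and 3.93 on days 5, 6 and 8, against 5.12 at 4 h and 5.04 on day 1, and 3.88 in untreated cells (difference -1.30, adjusted p = 0.00244). Their neighbour MIR23A had a difference of -0.53 (adjusted p = 0.186). MIR24-1 on chromosome 9, whose hairpin gives the same mature miR-24-3p as MIR24-2, was at 5.08, 4.85 and 4.73 on days 5, 6 and 8, against 5.29 at 4 h and 5.31 on day 1, and 1.80 in untreated cells (difference -0.41, adjusted p = 0.12). Unlike MIR24-2, its late values were far above the untreated one. The array reads the hairpin genes and not the mature miRNAs. The mature products, from RefSeq (GRCh38.p14), are shown because the hairpins share a cluster but not a seed, which is bases 2 to 8 and is in capitals.
hsa-miR-24-3p (chr19:13836289-13836310, minus strand): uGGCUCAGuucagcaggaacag
hsa-miR-27a-3p (chr19:13836447-13836467, minus strand): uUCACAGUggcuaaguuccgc
hsa-miR-23a-3p (chr19:13836595-13836615, minus strand): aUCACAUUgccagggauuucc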

How the data were processed

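The log2 values were analysed as deposited. By the study's methods the authors obtained them with RMA (background correction, quantile normalization, median polish) under a custom mapping of probes, with 1 log2 value per Entrez gene. Quantile normalization gives all arrays 1 distribution, so a shift of all genes together cannot be seen. All 23786 genes were tested without a filter on low values. Symbols were looked up by Entrez identifier in NCBI's table for GRCh38.p14 (23093 genes named, 693 not). Group means were fitted over the 5 arrays in limma 3.58.1 (R 4.3.3) with empirical Bayes moderation (3 residual and 4.84 prior degrees of freedom, median residual SD 0.164). Figures were drawn in Python with matplotlib 3.10.9. The test was tried on simulated data.

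The members and the 25 gene lists were chosen with earlier results of these data known, and no set test was run. Genes were named by rule: the 4 markers, the 12 largest called differences in each direction, up to 4 called members per list, and the 6 largest in each direction among genes not called by adjusted p, called genes within 0.5 log2 of untreated cells, and called genes back at the midpoint on day 12. Other list members were named after their values were seen, and a few genes picked by the rule are left out here. RefSeq held promoters for 56 of the 64 measured mitosis genes. A planned look at leader sequences of proteins was not run.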

Additional observations from a re-analysis of the deposited data

How the results depend on the processing

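No gene called in the comparison was called in the opposite direction under any of the 13 alternatives. This says little, because several of them keep the same difference, so that it could not reverse, and all share arrays with the comparison. At a size limit of 1.5 log2 the genes called were 359 in all, 255 higher and 104 lower. Leaving out 1 array gave 793 to 1477 called genes in all and 286 to 616 lower, the highest of both without day 1, and 660 (without 4 h) to 907 (without day 1) of the 1003 were kept; the cause was not tested. The other alternatives gave 841 (day 12 added to days 5 to 8) to 1110 (untreated added to the first day). Of the 120 genes picked by rule, 34 lost their call at the size limit of 1.5 log2. Without day 6, day 8 or day 5 the number was 20, 15 and 6. It was 17 with the untreated array added, 12 with day 12 added and 7 under regression on time. Calls were also lost without 4 h or without day 1, but those fits left 1 array in the first-day group. Among genes above the median gene, list medians were 1.37 for matricellular proteins, 1.01 for proteoglycans, 1.29 for integrins, 1.22 for proteases, -1.57 for defence proteins and -0.35 for axon guidance, with fewer genes in each. With the untreated array added they were 0.73 for actin, -0.25 for interleukin 1 and chemokines, and 0.45 for cell cycle inhibitors, and with day 12 added 0.45 for actin and 0.20 for S phase. Leaving out 1 array, medians ranged over 0.10 to 0.31 for collagens, 0.50 to 0.71 for actin, -0.86 to -0.54 for sterol synthesis and 0.17 to 0.53 for cell cycle inhibitors. No paired analysis was possible because each time had a single array. The number of arrays and the lack of replicates limit the precision.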
